A study of Mus musculus with 35 samples.

Results

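The p53 response genes described here are 8 mouse genes: Trp53, which encodes p53, and 7 genes that p53 is known to switch on, Cdkn1a, Mdm2, Bax, Bbc3, Ccng1, Trp53inp1 and Btg2. They were taken by name from the 24411 gene rows of the deposited count tables of pachytene spermatocytes (Spc), round spermatids (RS) and isolated chromatoid bodies (CBs), and all 8 were found and tested in every comparison. No measured value was used to choose them, although earlier results of these data were known when the list was made.

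The libraries came from adult Smg6-cKO mice, Smg6(fx/fx);Ngn3Cre+, in which exon 9 of the endonuclease gene Smg6 is deleted by a Cre driven by the Ngn3 promoter in early postnatal spermatogonia, and from control (CTRL) littermates of genotype Smg6(fx/fx);Ngn3Cre- or Smg6(fx/wt);Ngn3Cre-. SMG6 cuts mRNAs during nonsense-mediated decay (NMD). All mice had a mixed C57Bl/6J and SV129 background, and since no control carried Cre, the presence of Cre and the loss of Smg6 cannot be told apart. There were 3 cKO and 3 CTRL libraries of Spc, 3 and 3 of RS, and 3 cKO and 4 CTRL libraries of CBs. Cells were separated by sedimentation through an albumin gradient, with purity judged from nuclear staining, and polyadenylated RNA was sequenced; CBs, the RNA-rich granules of spermatid cytoplasm, were pulled down with an antibody to DDX4 from pooled testes, and their total RNA was sequenced. The sources differ on whether a cell library came from a single mouse or from several testes, so p-values measure the spread between these libraries.

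p53 is a transcription factor that is held at a low level by MDM2, a ubiquitin ligase that marks it for destruction and whose own gene is a p53 target. When DNA is damaged or RNA and ribosome production are disturbed, p53 escapes MDM2 and activates genes that halt the cell cycle, among them Cdkn1a, Btg2 and Ccng1, and genes of mitochondrial cell death, among them Bax and Bbc3. In the testis p53 is best known for the removal of damaged spermatogonia and spermatocytes.

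p53 binds DNA through a response element made of a pair of 10-base units, the p53 consensus decamer, and the sequences below are shown because such elements are the feature by which these genes are counted as its targets. In the 10000 bases centred on the annotated gene start (5000 on each side, GRCm38, GENCODE gene models), an element of 2 adjoining decamers with at most 1 base off the consensus, and none off in the core C and G of either decamer, was found for 2 of the 8 genes, Cdkn1a and Ccng1. The same search found one for 372 of 21911 protein-coding genes (1.7%). The element reads the same way on both strands, so a single scan covered both. Capitals mark the core C and G of each decamer.
Cdkn1a, chr17:29090928-29090947, plus strand: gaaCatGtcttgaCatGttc
Ccng1, chr11:40755462-40755481, minus strand: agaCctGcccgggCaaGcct
Ccng1, chr11:40754936-40754955, minus strand: acgCaaGcccgggCtaGtct
Counted from the annotated start, the first base of the Cdkn1a element lay at -48 for the gene, at -51 for transcript Cdkn1a-202 and at -2841 for transcript Cdkn1a-201. The Ccng1 elements began at -170 and at 356 from the gene start. A match is a likeness of letters and was not tested for binding. Decamers set apart by other bases, elements with more mismatches and sites outside the window were not counted. A gene without a match may thus still have an element.

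Single decamers that match the consensus in full were searched in the promoters of RefSeq (GRCm38.p6, 250 bases before to 50 after each annotated start; a gene with several starts has several windows). Of the 7 members with an entry, 5 held one, against 9.55% of 27025 genes. Because the genes were named as known p53 targets, this share and that of the paired decamers above are descriptions and not a test. Trp53inp1 had no entry, and no match was found for Bbc3 or Btg2. Capitals again mark the core.
Trp53, chr11:69580284-69580293, plus strand: ggaCttGccc
Cdkn1a, chr17:29090906-29090915, plus strand: ggaCtaGctt
Cdkn1a, chr17:29090928-29090937, plus strand: gaaCatGtct
Mdm2, chr10:117710935-117710944, minus strand: gaaCttGcct
Bax, chr7:45467090-45467099, minus strand: aggCaaGctt
Ccng1, chr11:40755462-40755471, minus strand: gggCaaGcct

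Gene counts summed to between 36419197 and 47355837 per library in Spc and RS, to between 5275695 and 12103906 in CTRL CBs and to between 2705277 and 5980996 in cKO CBs. The targeted gene Smg6 was at 109 to 172 CPM in CTRL and 182 to 189 CPM in cKO Spc, at 143 to 235 and 190 to 203 CPM in RS, and at 256 to 283 and 231 to 292 CPM in CBs, and passed in none of these comparisons (edgeR adjusted p = 0.361, 0.968 and 0.907). CPM are counts scaled to the library size with TMM factors. A count over the whole gene does not resolve exon 9 and so does not check the deletion. Spermatocyte markers summed to 1520 to 1980 CPM in the 6 Spc libraries and to 565 to 730 CPM in the 6 RS libraries. Round spermatid markers summed to 3330 to 3570 CPM in CTRL RS but to 929 to 1090 CPM in cKO RS, and late spermatid markers to 20900 to 28900 CPM in CTRL RS and 1130 to 1340 CPM in cKO RS, so the cKO fraction carried less RNA of the later spermatid genes than the CTRL fraction. The lists of 12 macrophage, 6 Leydig and 8 Sertoli cell markers were all present with no member at 0 in either cell type. In bulk RNA, fewer cells of a type and less RNA per cell cannot be told apart.

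**Figure D1:**
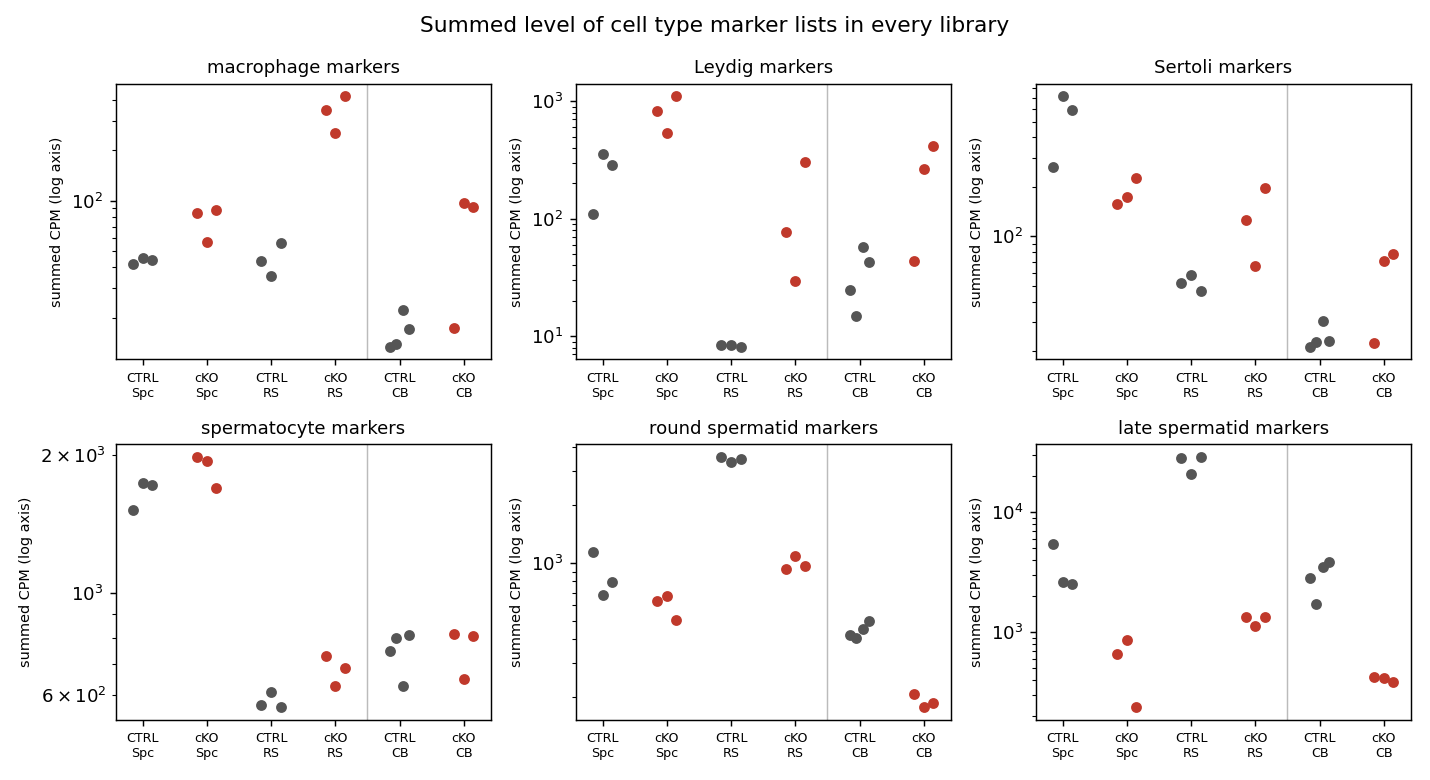
Summed level of 6 marker lists in each library, in CPM on a log axis; each point is a library, grey for CTRL and red for cKO, and the grey line divides the cell libraries from the CB libraries, which were scaled separately. Macrophage markers lie at 252 to 420 CPM in cKO RS and at 35.5 to 55.8 CPM in CTRL RS, and late spermatid markers are lower in every cKO RS library than in any CTRL RS library.

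Among the members Mdm2 was by far the most abundant. Per kilobase of annotated exon, its level in CTRL Spc was 38.6 ± 0.974 CPM (mean ± SD, n = 3), against 5.12 ± 3.6 for Btg2, 3.89 ± 0.373 for Trp53inp1, 3.37 ± 0.697 for Trp53 and 2.59 ± 0.537 for Bax. Ccng1 (1.57 ± 0.46), Cdkn1a (1.17 ± 0.541) and Bbc3 (0.765 ± 0.318) were the lowest on this scale. After Mdm2, the means of neighbours in this order differed by less than the larger of their SDs, except for the gaps from Trp53 to Bax and from Bax to Ccng1. In CTRL RS the level per kilobase was 48 ± 1.99 CPM for Mdm2 and 2.61 ± 1.48 CPM for Bbc3, and the other 6 genes lay between 0.66 and 1.29 CPM. In cKO RS, by contrast, Btg2 stood second at 10.6 ± 4.52 CPM per kilobase, and Bbc3 was last at 1.54 ± 0.414 CPM.

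**Figure D2:**
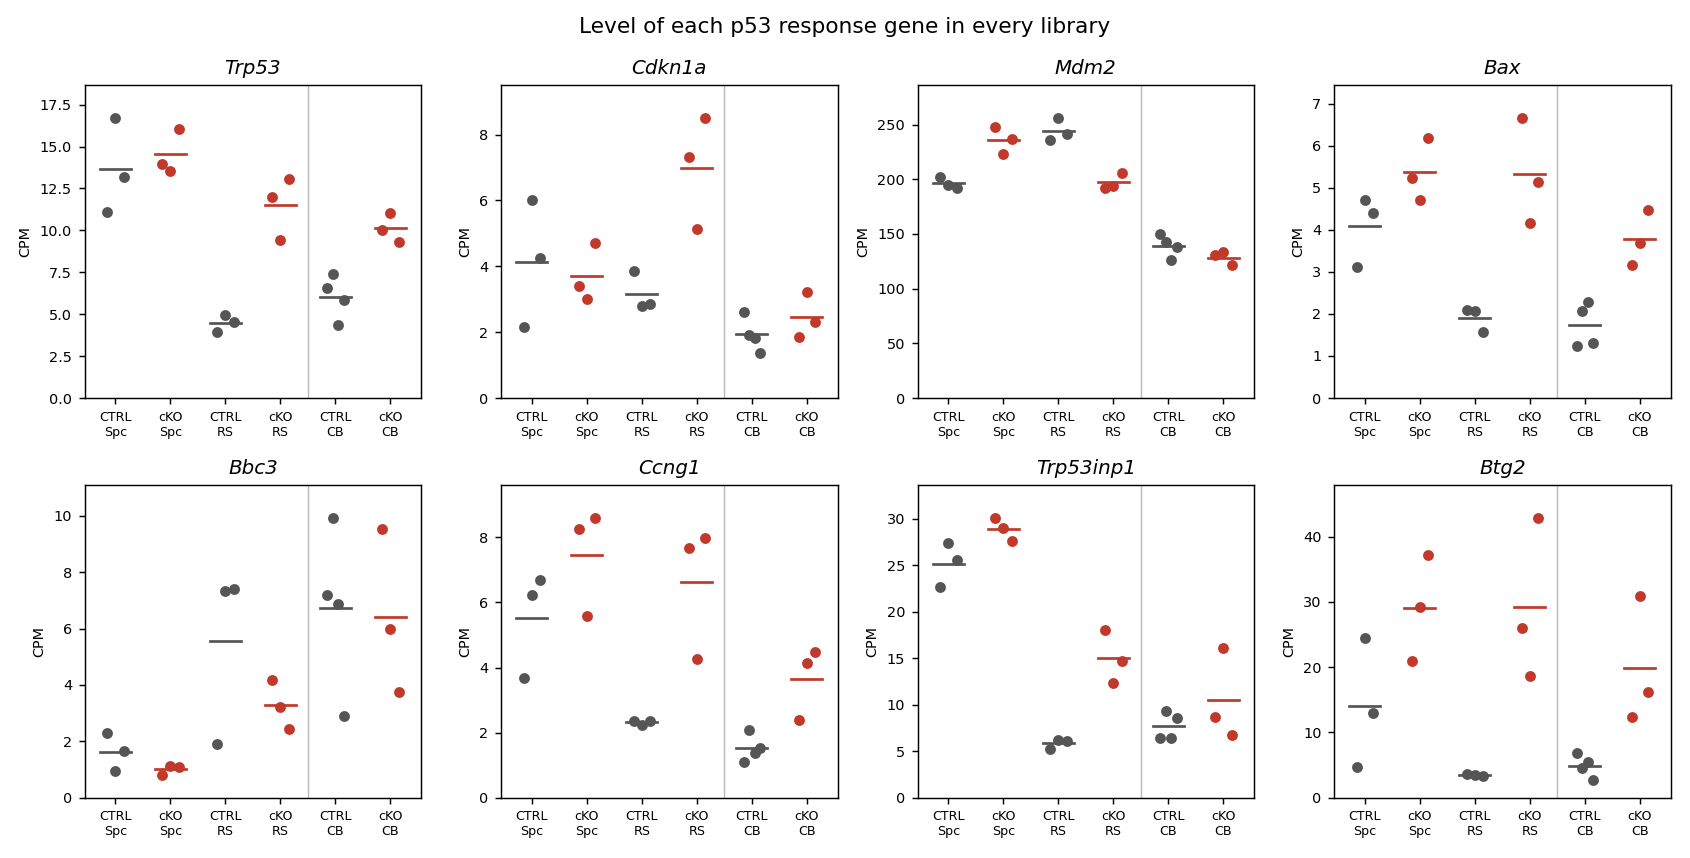
CPM of each of the 8 genes in every library; points are libraries, horizontal bars are group means, grey is CTRL and red is cKO, each panel starts at 0, and the grey line divides the cell libraries from the separately scaled CB libraries. In RS the 3 red points of Trp53, Cdkn1a, Bax, Ccng1, Trp53inp1 and Btg2 lie above the 3 grey ones, those of Mdm2 lie below, and those of Bbc3 overlap.

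The first question was whether these genes differed between Smg6-cKO and CTRL round spermatids. They did for 7 of 8: Trp53, Cdkn1a, Bax, Ccng1, Trp53inp1 and Btg2 were higher in cKO RS, Mdm2 was lower, and Bbc3 did not pass the test. The test was edgeR's quasi-likelihood test, two-sided, over 17492 genes, and a gene passed with a Benjamini-Hochberg adjusted p of at most 0.05. The share of all genes that passed was also high, 38.4% higher and 34.3% lower in cKO RS. The median log2 fold change of the 8 genes was 1.38, against 0.11 over all genes tested. The count of 7 was the same under each of 7 other processing choices and 7 or 8 when single libraries were left out. With library sizes in place of TMM scaling the split turned from 6 higher and 1 lower to 7 higher.

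Trp53 (chr11:69580359-69591873) was at 3.91, 4.93 and 4.51 CPM in the CTRL RS libraries and at 12, 9.45 and 13.1 CPM in the cKO RS libraries. The lowest cKO library was above the highest CTRL library, and the gene rose 2.61-fold (log2 fold change 1.38, SE 0.18, adjusted p = 0.000234). Mdm2 (chr10:117688875-117710758), the antagonist of p53 and a p53 target, went the other way. Its level was 236, 256 and 241 CPM in CTRL RS and 192, 194 and 206 CPM in cKO RS, with no overlap between the groups. It fell by 0.30 on the log2 scale (SE 0.06, adjusted p = 0.00303). This direction holds only relative to the other genes: with library sizes alone the median of all genes moved from 0.11 to 0.73, and the log2 fold change of Mdm2 became 0.32 (adjusted p = 0.00225). Relative to that median, Mdm2 was at -0.40 under both scalings.

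Of the genes of cell cycle arrest, Btg2 (chr1:134075170-134079120), an antiproliferative cofactor of mRNA deadenylation, had the largest change of the 8. Its level was 3.67, 3.55 and 3.39 CPM in CTRL RS and 26, 18.6 and 42.8 CPM in cKO RS. The CTRL libraries lay close together and the cKO libraries differed among themselves by more than the whole CTRL range, yet all 3 were higher, an 8.31-fold rise (log2 fold change 3.06, SE 0.30, adjusted p = 4.75e-05). Cdkn1a (chr17:29090976-29100727), which encodes the CDK inhibitor p21, was at 3.85, 2.8 and 2.86 CPM in CTRL RS. In cKO RS it was at 7.32, 5.13 and 8.49 CPM. The groups did not overlap and Cdkn1a rose 2.22-fold (log2 fold change 1.15, SE 0.24, adjusted p = 0.00306). Ccng1 (chr11:40748552-40755311), which encodes the atypical cyclin G1, was at 2.36, 2.22 and 2.37 CPM in CTRL RS and at 7.66, 4.25 and 7.98 CPM in cKO RS. It rose 2.88-fold (log2 fold change 1.53, SE 0.27, adjusted p = 0.00114), and its lowest cKO library was replicate 2, as it was for Trp53, Cdkn1a, Bax, Trp53inp1 and Btg2.

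Of the genes of cell death, Bax (chr7:45461697-45466898), whose product permeabilises the outer mitochondrial membrane, was at 2.09, 2.06 and 1.58 CPM in CTRL RS and at 6.65, 4.16 and 5.14 CPM in cKO RS. It rose 2.8-fold with no overlap between the groups (log2 fold change 1.49, SE 0.25, adjusted p = 0.000832). Trp53inp1 (chr4:11156431-11174379), which encodes a stress-induced partner of p53 that also acts in autophagy, was at 5.28, 6.22 and 6.06 CPM in CTRL RS and at 18.1, 12.3 and 14.7 CPM in cKO RS. It rose 2.59-fold (log2 fold change 1.37, SE 0.18, adjusted p = 0.000212), again with every cKO library above every CTRL library. Bbc3 (chr7:16308393-16318205), which encodes the BH3-only protein PUMA, differed from the rest. Its level was 1.91, 7.32 and 7.41 CPM in CTRL RS and 4.18, 3.22 and 2.42 CPM in cKO RS, so CTRL replicate 1 lay below all cKO libraries and the other 2 above them. The log2 fold change was -0.75 (95% interval -1.83 to 0.34, adjusted p = 0.183), and without CTRL RS replicate 1 it was -1.17 (adjusted p = 0.00753).

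Macrophage markers moved with these changes. The 12 genes of that list summed to 252 to 420 CPM in cKO RS and 35.5 to 55.8 CPM in CTRL RS, with none at 0. The Leydig cell list summed to 29.3 to 305 CPM in cKO RS and 8.16 to 8.45 CPM in CTRL RS, and the Sertoli cell list to 65.5 to 198 CPM and 46.3 to 58.2 CPM. Of the germ cell lists, spermatogonia markers summed to 73.7 to 115 CPM in cKO RS and 41.2 to 52.5 CPM in CTRL RS (5 of 6 higher), and spermatocyte markers to 628 to 730 CPM and 565 to 610 CPM (4 of 7 higher, 2 lower). In the same libraries the erythroid list summed to 67.7 to 250 CPM and 22.5 to 26.2 CPM. The cKO RS library with the lowest macrophage, Leydig and Sertoli sums was replicate 2, which was also the lowest cKO library for those 6 genes that rose. Replicate 3 had the highest sums of these lists and the highest levels of Trp53, Cdkn1a, Ccng1 and Btg2. Bax and Trp53inp1 were instead highest in replicate 1, at 6.65 and 18.1 CPM, against 5.14 and 14.7 CPM in replicate 3. The part of these cells in the levels of the 8 genes was not tested.

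**Figure D3:**
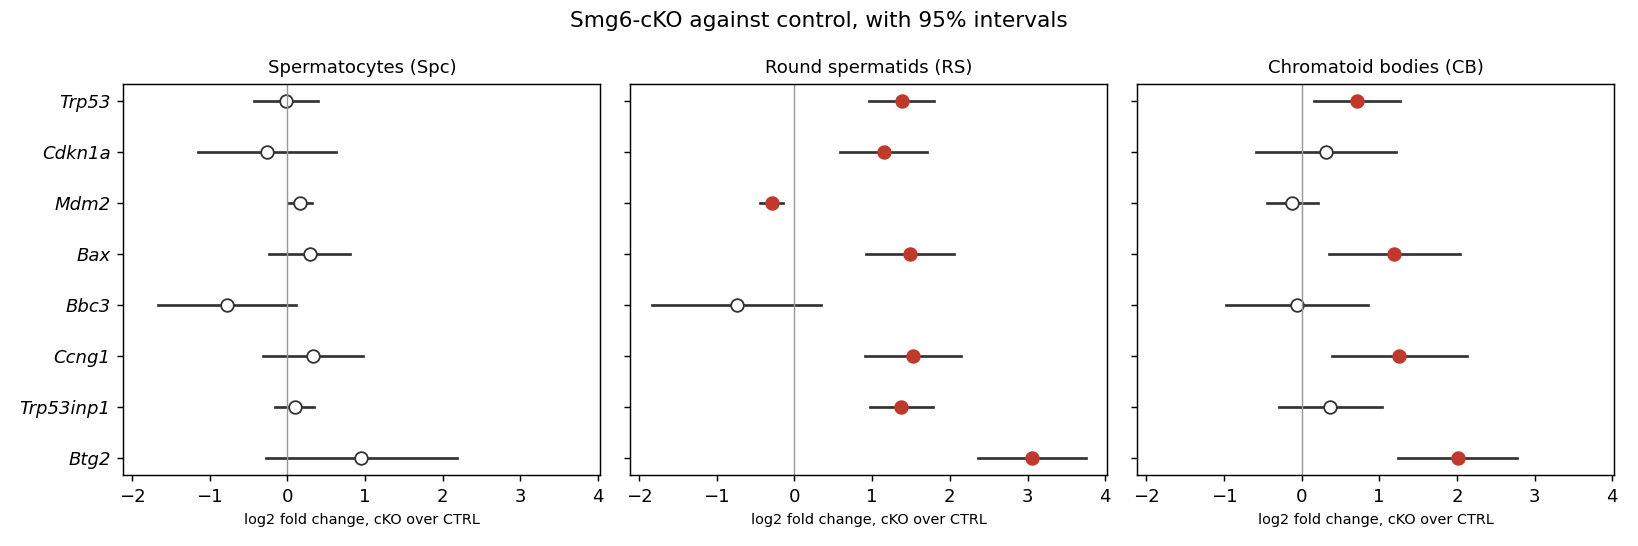
Log2 fold change of cKO over CTRL for each gene in Spc, RS and CBs, with bars for the 95% interval; filled points passed at an adjusted p of at most 0.05 and open points did not. None is filled in Spc, 7 are filled in RS and 4 in CBs.

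The second question was whether the genes already differed in pachytene spermatocytes, the stage before. None of the 8 passed there (17321 genes tested, of which 14% were higher and 14.1% lower in cKO). At an unadjusted p under 0.05 there were 7369 genes, of which Mdm2 was the sole member, and DESeq2 also called 0 of the 8. The median log2 fold change of the members was 0.12, against -0.01 over all genes. Trp53 was at 11.1, 16.7 and 13.2 CPM in CTRL Spc and at 14, 13.5 and 16.1 CPM in cKO Spc. The groups overlapped, with a log2 fold change of -0.02 and a 95% interval of -0.43 to 0.40. For Trp53inp1, at 22.6, 27.4 and 25.5 CPM in CTRL and 30, 29 and 27.6 CPM in cKO, the log2 fold change was 0.09 (-0.16 to 0.35). Rises of the size seen in RS lie outside both intervals.

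Mdm2 was at 202, 195 and 192 CPM in CTRL Spc and at 248, 223 and 237 CPM in cKO Spc. The groups did not overlap, but the log2 fold change of 0.16 (SE 0.07) had an adjusted p of 0.113. Btg2 varied most, with 4.75, 24.4 and 13 CPM in CTRL Spc and 20.9, 29.2 and 37.2 CPM in cKO Spc. Its log2 fold change of 0.95 had a 95% interval of -0.28 to 2.19 (adjusted p = 0.207). With single libraries left out the Btg2 value ran from 0.56 to 1.61 (adjusted p from 0.0519 to 0.401). For the remaining members the intervals also held 0: -1.15 to 0.62 for Cdkn1a, -0.23 to 0.81 for Bax, -1.66 to 0.11 for Bbc3 and -0.32 to 0.97 for Ccng1. CTRL Spc replicate 1 had the lowest level of the CTRL Spc group for Trp53, Cdkn1a, Bax, Ccng1, Trp53inp1 and Btg2 and the highest for Bbc3, and its late spermatid markers summed to 5390 CPM, against 2500 and 2610 CPM in the other two.

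Whether the effect of genotype differed between RS and Spc was tested in one fit over the 12 libraries. It did for 7 of 8 genes: the log2 fold change of cKO over CTRL was higher in RS than in Spc for 6 of them and lower for Mdm2. Among all 18171 genes tested it was higher in RS for 19% and lower for 24.1%. The differences in log2 fold change were 1.28 for Trp53 (SE 0.25, adjusted p = 0.00278), 1.16 for Trp53inp1 (SE 0.20, adjusted p = 0.00147) and -0.57 for Mdm2 (SE 0.09, adjusted p = 0.000972). They were 1.99 for Btg2 (SE 0.68, adjusted p = 0.034), 1.08 for Bax (SE 0.33, adjusted p = 0.0211), 1.30 for Cdkn1a (SE 0.48, adjusted p = 0.0469) and 1.08 for Ccng1 (SE 0.41, adjusted p = 0.0498). For Bbc3 the difference was -0.09 with a 95% interval of -1.56 to 1.38. Some marker lists of other cells showed the same kind of difference: it was higher in RS for 8 of 8 Sertoli markers (median 3.47), 6 of 12 macrophage markers (median 1.58) and 4 of 5 erythroid markers (median 2.14). It was higher for 0 of 6 Leydig (median 2.32), 0 of 5 peritubular myoid, 0 of 5 endothelial and 1 of 6 spermatogonia markers. Sertoli markers were lower in cKO than in CTRL Spc for 6 of 8 and higher in cKO RS for 7 of 7 tested. Their part in the differences of the members was not tested. Between 3 and 7 genes passed when single libraries were left out. There were 3 without cKO Spc replicate 2, CTRL Spc replicate 2 or 3, cKO RS replicate 1 or CTRL RS replicate 3, and 4 without cKO Spc replicate 1, cKO RS replicate 3 or CTRL RS replicate 1 or 2, and in each of these 9 cases Trp53, Mdm2 and Trp53inp1 were among them. Over all 12 cases the calls of Btg2, Ccng1 and Cdkn1a held in 3 each (adjusted p up to 0.0933, 0.118 and 0.127) and that of Bax in 7 (up to 0.0544). From transcript counts summed per gene the adjusted p of Cdkn1a was 0.0517. With library sizes alone the difference for Mdm2 was 0.13 (adjusted p = 0.265).

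RS were also compared with Spc within each genotype. This comparison uses the same libraries as those above and is not independent of them. In CTRL mice 5 genes were lower in RS and 1 was higher (17046 genes tested, 39.7% lower and 36.2% higher in RS), and with library sizes alone 7 were lower and 0 higher. In cKO mice 2 were lower and 2 higher (17709 genes tested, 26.4% lower and 18.9% higher). The median log2 fold change of the 8 genes was -1.30 in CTRL and -0.12 in cKO, against -0.08 and 0.01 over all genes. The fractions differed in more than meiotic stage. Sertoli markers were lower in CTRL RS than in CTRL Spc for 8 of 8 (median -3.27), with sums of 46.3 to 58.2 CPM and 265 to 714 CPM, and Leydig markers for 6 of 6 (median -4.90), with sums of 8.16 to 8.45 CPM and 111 to 355 CPM. From cKO Spc to cKO RS 0 of 8 Sertoli markers passed and 5 of 6 Leydig markers were lower, while all 12 macrophage markers were higher. The part of these cells in the fall of the 5 genes in CTRL was not tested.

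Trp53 fell by 1.75 on the log2 scale from CTRL Spc to CTRL RS (SE 0.19, adjusted p = 0.000241). In cKO mice its log2 fold change was -0.37 (95% interval -0.75 to 0.02, adjusted p = 0.106). Trp53inp1 fell by 2.24 in CTRL (SE 0.13, adjusted p = 3.7e-05) and by 0.97 in cKO (SE 0.15, adjusted p = 0.00179), so that it declined in both genotypes and by less in cKO. Btg2 fell by 2.12 in CTRL (SE 0.53, adjusted p = 0.00808), while its value in cKO was -0.03 (-0.79 to 0.72). Bax fell by 1.22 (SE 0.23, adjusted p = 0.00217) and Ccng1 by 1.38 (SE 0.25, adjusted p = 0.00171) in CTRL. Their values in cKO were -0.04 (-0.58 to 0.49) and -0.20 (-0.86 to 0.46).

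Cdkn1a was the one gene of those higher in cKO RS that was also higher in cKO RS than in cKO Spc, by 0.88 on the log2 scale (SE 0.27, adjusted p = 0.0305). This call was lost without cKO Spc replicate 1 or 2 or cKO RS replicate 1 or 3, with adjusted p between 0.0598 and 0.0851. In CTRL its value was -0.52 (-1.37 to 0.33, adjusted p = 0.226), while without CTRL Spc replicate 1 it was -0.83 (adjusted p = 0.00992) and with library sizes alone -0.99 (adjusted p = 0.0414). Mdm2 was lower in RS than in Spc in cKO mice (-0.28, SE 0.07, adjusted p = 0.0114), a call lost without cKO Spc replicate 1 or cKO RS replicate 1 (adjusted p = 0.072 and 0.0796) and with library sizes alone, where the value was -0.14 (adjusted p = 0.0847). In CTRL mice its value was 0.18 (SE 0.07, adjusted p = 0.0548), which turned to -0.27 (adjusted p = 0.0118) with library sizes alone. Some other fits called Mdm2 higher in CTRL RS. The adjusted p was as low as 0.033 with single libraries left out, where values ran from 0.15 to 0.22. Under other processing choices it was as low as 0.0068. Bbc3 was higher in RS in both genotypes, by 1.64 in CTRL (SE 0.56, adjusted p = 0.0295) and by 1.65 in cKO (SE 0.30, adjusted p = 0.00379). The CTRL call was lost without CTRL Spc replicate 2 or 3 or CTRL RS replicate 2 or 3 (adjusted p between 0.0805 and 0.0949) and with library sizes alone (1.19, adjusted p = 0.07). The CTRL groups overlapped.

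**Figure D4:**
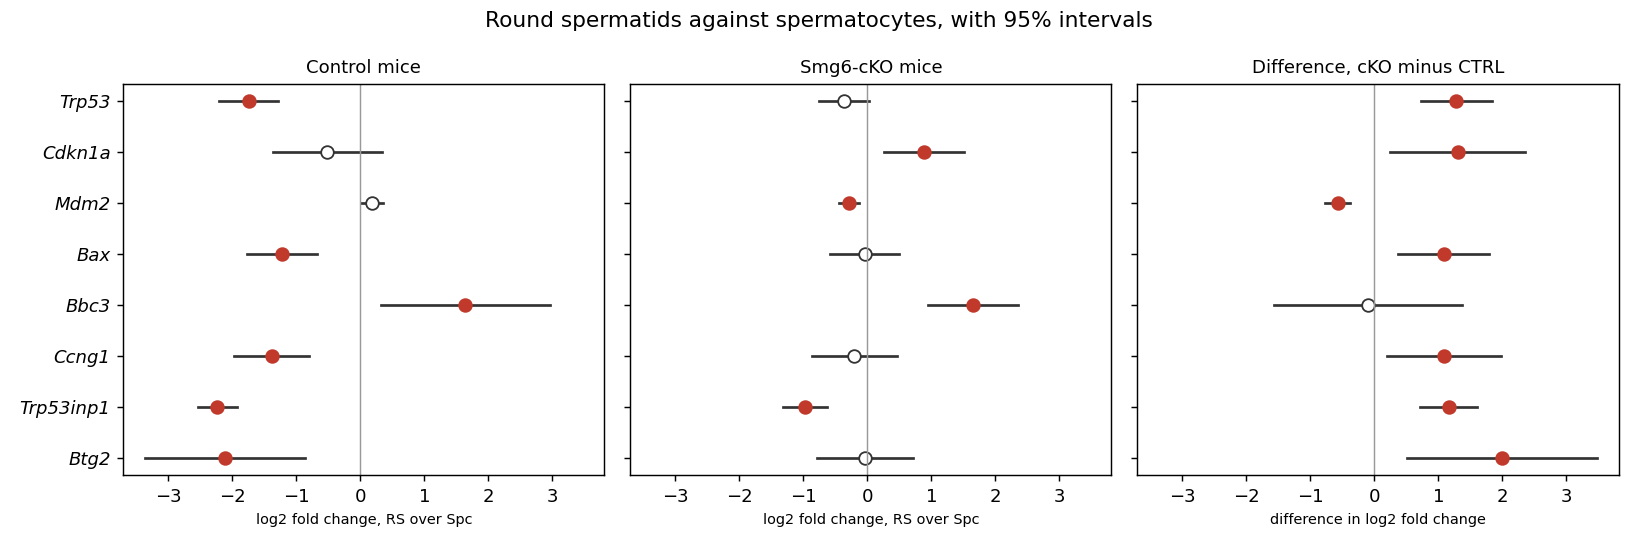
Log2 fold change of RS over Spc in CTRL mice and in cKO mice, and the difference between these (cKO minus CTRL), with bars for the 95% interval; filled points passed at an adjusted p of at most 0.05. Trp53, Bax, Ccng1 and Btg2 are filled and below 0 in CTRL and open in cKO, and the difference is filled for every gene but Bbc3.

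In CBs the third question was whether the RNA found in the granules changed in the same genes. Among 14051 genes tested, 18.1% were higher and 18.4% lower in cKO CBs, and 4 of the 8 genes were higher: Btg2, Ccng1, Bax and Trp53. Counts were low. Bax had 10, 14, 10 and 18 counts in CTRL CBs and 12, 8 and 25 in cKO CBs, in libraries of unequal depth, which came to 1.24, 2.07, 2.29 and 1.3 CPM and 3.17, 3.68 and 4.46 CPM. Its log2 fold change was 1.20 (SE 0.39, adjusted p = 0.0292). Ccng1 had 6 to 21 counts in CTRL and 9 to 25 in cKO CBs, and its log2 fold change was 1.26 (SE 0.41, adjusted p = 0.0268). With single libraries left out, Bax passed in 4 of 7 cases (adjusted p up to 0.125), and Ccng1 in 2 of the 4 in which it had enough counts to be tested (up to 0.077). Under 6 other processing choices Bax passed in 3 and Ccng1 in 4.

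Trp53 was at 6.56, 7.4, 4.34 and 5.87 CPM in CTRL CBs and at 10.1, 11.1 and 9.29 CPM in cKO CBs, with no overlap. Its log2 fold change of 0.72 (SE 0.26) passed narrowly (adjusted p = 0.0431), and the call held without 1 of the 7 libraries, CTRL CB replicate 2, and under 2 of 6 other processing choices (adjusted p up to 0.1 and 0.228). Btg2 was at 6.8, 4.59, 5.49 and 2.68 CPM in CTRL and 12.4, 30.8 and 16.3 CPM in cKO CBs. It rose 4.02-fold (log2 fold change 2.01, SE 0.36, adjusted p = 0.000961), and it passed under every alternative and without any single library. The count of 4 was not reached with any library left out: it was 3 without cKO CB replicate 1 or CTRL CB replicate 2 or 3, 2 without cKO CB replicate 2, and 1 without cKO CB replicate 3 or CTRL CB replicate 1 or 4. It was also 2 with DESeq2, 3 with genes and elements scaled together, and 1 with library sizes alone or with no count filter. For Cdkn1a, Mdm2, Bbc3 and Trp53inp1 the 95% intervals were -0.59 to 1.22, -0.44 to 0.21, -0.97 to 0.86 and -0.29 to 1.04. Markers of other cells moved with these calls. All 5 Leydig markers tested were higher in cKO CBs (median log2 fold change 2.39), and the list summed to 43.6 to 414 CPM in cKO and 14.9 to 57.4 CPM in CTRL CBs. Macrophage markers (3 of 5 tested higher) summed to 17.5 to 96.2 CPM and 13.5 to 22.4 CPM, Sertoli markers (2 of 5 higher, Fshr at 0 in cKO CBs) to 22.2 to 78.4 CPM and 21.3 to 30.4 CPM, and spermatogonia markers (3 of 5 higher) to 36.5 to 121 CPM and 19.9 to 30.4 CPM. Late spermatid markers were lower for 6 of 6. Their part in the levels of the members was not tested.

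Transcript counts give values for the annotated forms of the members. The members have 37 annotated transcripts, of which 29 were in the table; a read that fits several is shared among them, so forms with common exons move together. In RS 15 of the 29 were higher and 6 lower (57133 transcripts tested, 38.9% higher and 36% lower). In Spc 0 of 27 passed (57631 tested, 16.1% higher and 12.5% lower), with 4 at an unadjusted p under 0.05 and DESeq2 also calling 0, and in CBs 1 of 12, the Btg2 transcript, was higher (30623 tested, 17.8% higher and 18.1% lower).

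Of the 3 coding forms of Cdkn1a in the table, only Cdkn1a-201 passed in RS. Cdkn1a-201 (ENSMUST00000023829), with a 3'UTR of 1332 nt, was at 1.64 ± 0.339 CPM in CTRL and 4.91 ± 1.19 CPM in cKO RS (mean ± SD, n = 3). It rose by 1.57 on the log2 scale (SE 0.23, adjusted p = 0.000597). Its share of the counts of the gene was 56.5% in CTRL and 74.5% in cKO RS. Cdkn1a-202 (ENSMUST00000119901), whose start lies nearer to the response element than those of the other coding forms in the table, had a value of 0.51 (SE 0.28, adjusted p = 0.137), and Cdkn1a-203 (ENSMUST00000122348) one of 0.34 (SE 0.28, adjusted p = 0.301). These differences between forms of the gene were not tested against each other. Cdkn1a-202 and Cdkn1a-203 have annotated 3'UTRs of 311 and 187 nt, and Cdkn1a-205, with one of 1337 nt, was not in the table. Whether starts or 3' ends account for the unlike values was not tested.

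All 6 transcripts of Trp53 rose, with log2 fold changes from 1.43 to 1.54, as did the 4 of Trp53inp1 (up to 1.60), both of Ccng1 and the single ones of Bax and Btg2. The 3 main forms of Mdm2 did not pass: Mdm2-201 and Mdm2-202, which code for protein, were both at -0.13 on the log2 scale (adjusted p = 0.121 and 0.12), and Mdm2-209 (ENSMUST00000155285), annotated as an NMD substrate with 3 exon junctions at least 50 nt behind the stop codon, had -0.12 (SE 0.07, adjusted p = 0.125). It held 20.7% of the Mdm2 counts in CTRL and 22% in cKO RS. Mdm2-201 and Mdm2-202 held 20.8% and 20.9% in CTRL RS. Reads in exons common to these forms are divided among them, so neither the share nor the change measures Mdm2-209 alone. The 6 other Mdm2 forms, retained introns and non-coding transcripts, fell by 0.26 to 0.42 on the log2 scale. With library sizes alone the value of the whole gene turned to 0.32, and those of single forms under that scaling are not given. None of the 3 Bbc3 forms passed. Without cKO RS replicate 1 the number of member transcripts that passed in RS was 13 in place of 21, and without CTRL Spc replicate 2 it was 1 in Spc.

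Other genes of the p53 pathway, from lists drawn up by known role and not by how they moved, were set beside the 8 members. Of 43 other p53 targets, 39 were tested in RS: 25 were higher, 7 lower and 7 did not pass, with a median log2 fold change of 1.28. The shares of all genes, against which this and the list counts that follow are to be read, were 38.4% higher and 34.3% lower in RS and 14% and 14.1% in Spc. Markers of other cells moved in the same RS libraries: 12 of 12 macrophage (median 3.34), 5 of 5 Leydig (median 4.16) and 7 of 7 Sertoli markers tested (median 1.33) were higher in cKO, as were 5 of 6 spermatogonia (median 0.97) and 4 of 7 spermatocyte markers (median 0.75). In Spc 9 of 12 macrophage (median 1.68) and 2 of 6 Leydig markers were higher in cKO, with Leydig sums of 536 to 1100 CPM in cKO and 111 to 355 CPM in CTRL, and 6 of 8 Sertoli markers were lower. The part of these cells in the changes of the lists was not tested. In Spc 4 of 41 were higher, 4 lower and 33 did not pass, with a median of 0.05. Among targets for growth arrest, 11 of 13 were higher in RS and 1 lower. Sesn2, a stress-induced regulator of growth signalling, rose from 275 to 920 normalised counts (log2 fold change 1.74, SE 0.13, adjusted p = 9.59e-06), and Plk3, a stress-responsive kinase, from 43.7 to 146 (log2 fold change 1.74, SE 0.32, adjusted p = 0.00155). Ptp4a3, a phosphatase, fell by 2.50 on the log2 scale (SE 0.16, adjusted p = 4.01e-06).

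Among targets for apoptosis 8 of 12 were higher in RS and 1 lower. Pmaip1, which encodes the BH3-only protein NOXA, rose in RS from 34.3 to 152 normalised counts (log2 fold change 2.15, SE 0.24, adjusted p = 9.04e-05), and it was 1 of the 4 other targets higher in Spc, from 152 to 488 (log2 fold change 1.68, SE 0.20, adjusted p = 0.00291). Steap3 rose from 23.5 to 114 in RS (log2 fold change 2.26, SE 0.50, adjusted p = 0.00377), and Tnfrsf10b, a death receptor gene, fell by 1.36 on the log2 scale (SE 0.33, adjusted p = 0.00653). Of the targets for repair and metabolism 6 of 14 were higher and 5 lower, near the 38.4% and 34.3% of all genes, with a median of 0.083. Ephx1, an epoxide hydrolase gene, rose from 52.3 to 729 (log2 fold change 3.80, SE 0.73, adjusted p = 0.00182), and from CTRL Spc to CTRL RS it fell by 5.10, where the Leydig markers had a median of -4.90. Ddit4, an inhibitor of mTORC1 signalling, rose by 1.71 on the log2 scale, while Mgmt, a DNA repair gene, fell by 1.26 and Ak1, an adenylate kinase gene, by 2.19.

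Of the regulators of p53, 11 of 19 were higher in RS, 7 lower and 1 did not pass. Kat5, an acetyltransferase that modifies p53, rose by 1.68 (SE 0.06, adjusted p = 3.26e-07) and the checkpoint kinase gene Chek2 by 1.73 (SE 0.29, adjusted p = 0.000948). The p53 kinase genes Hipk2 and Trp53rkb fell from 1218 to 179 and from 703 to 153 normalised counts (adjusted p = 2.04e-05 and 7.29e-06), and both also fell in Spc, by 0.75 and 1.00 on the log2 scale. In Spc the checkpoint and repair kinase genes Chek1 and Prkdc rose by 0.99 (SE 0.18, adjusted p = 0.00953) and 0.82 (SE 0.10, adjusted p = 0.00288).

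Of the BCL2 family beyond the members, 9 of 12 were higher in RS and 2 lower. Bak1, which encodes the second pore-forming protein beside BAX, rose from 503 to 2890.5 normalised counts in RS (log2 fold change 2.52, SE 0.10, adjusted p = 5.26e-07) and from 883 to 3373 in Spc (log2 fold change 1.93, SE 0.11, adjusted p = 0.000198). Bcl2l14 fell by 2.95 in RS (SE 0.08, adjusted p = 1.47e-07) and by 1.59 in Spc (SE 0.30, adjusted p = 0.0113). Of the genes of the apoptosome and the caspases, 9 of 11 were higher in RS and 2 did not pass. Casp8, an initiator caspase gene, rose by 2.00 (SE 0.32, adjusted p = 0.000698), and Xiap, which encodes an inhibitor of caspases, by 1.91 (SE 0.21, adjusted p = 9.21e-05).

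The nearest relatives of the members moved in both directions. Of the other BTG and TOB genes, Tob2 and Btg3 rose in RS (by 1.04 and 0.75), while Btg1 and Tob1 fell (by 0.94 and 1.01), and of 5 tested 2 were higher and 3 lower. Of 5 CDK inhibitor genes beside Cdkn1a, 3 were higher, Cdkn1b, Cdkn2b and Cdkn2d (by 1.79, 0.93 and 0.89), and 2 lower, Cdkn2c and Cdkn1c (by 0.27 and 2.53). In Spc only Cdkn1b of these 5 passed, and it was lower in cKO (log2 fold change -1.70, SE 0.45, adjusted p = 0.0316). Ccng2, the paralogue of Ccng1, rose by 0.59 in RS (SE 0.21, adjusted p = 0.031), with overlap between the groups. Trp53inp2, the paralogue of Trp53inp1, fell by 1.65 in RS (SE 0.21, adjusted p = 0.000211) and by 1.07 in Spc (SE 0.25, adjusted p = 0.0205).

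**Figure D5:**
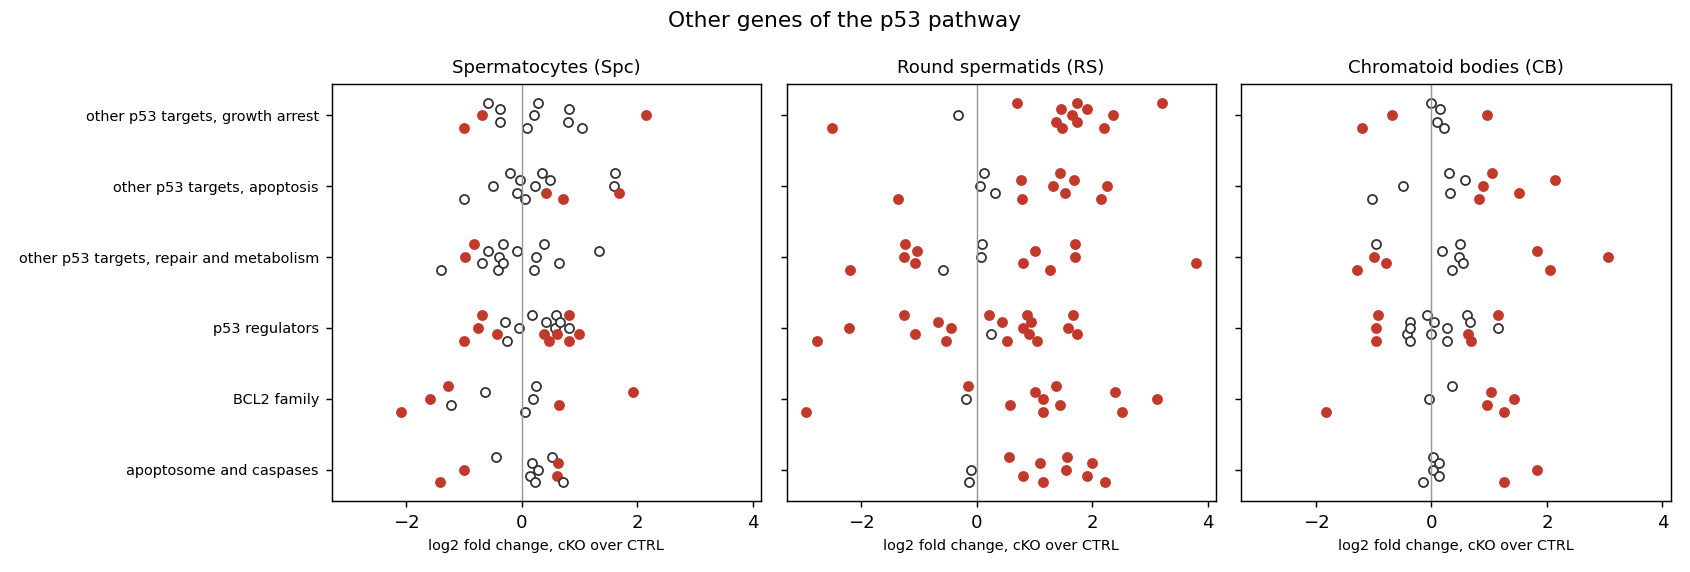
Log2 fold change of cKO over CTRL for the other genes of the p53 pathway, a row per list and a panel per sample type; each point is a gene, shifted up or down for legibility, filled where the adjusted p was at most 0.05. Most points of the growth arrest list lie above 0 in RS, where 11 of 13 passed on that side, and are open in Spc.

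In CBs 29 of the 43 other targets were tested, and 9 were higher, 5 lower and 15 did not pass (median 0.32), where 18.1% of all genes were higher and 18.4% lower. Fdxr, a mitochondrial reductase gene, rose from 69.2 to 281 normalised counts (log2 fold change 2.05, SE 0.37, adjusted p = 0.00117) and Sesn1 from 77.4 to 151 (log2 fold change 0.96, SE 0.21, adjusted p = 0.00342). Bad and Bak1 rose by 1.26 and 1.03, and Bcl2l14, Btg1, Ptp4a3, Ak1 and Trp53inp2 fell by 1.83, 0.95, 1.20, 1.28 and 1.45. The last 5 also fell in RS. In the same CB libraries 5 of 5 Leydig markers tested (median 2.39), 3 of 5 macrophage markers (median 2.01) and 2 of 5 Sertoli markers were higher in cKO. Late spermatid markers were lower for 6 of 6. The part of these cells in the changes of the other genes was not tested.

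Across the 12 Spc and RS libraries the pattern of each member was compared with 13069 genes by the root mean square difference of centred log2(CPM + 1) values, where a smaller value is a closer match. Bax and Ccng1 had the smallest distance of any pair of members (0.18), and Trp53 lay 0.26 from Ccng1, 0.28 from Bax and 0.31 from Trp53inp1. Bbc3 lay 0.72 to 1.75 from the others and was the farthest member from Trp53, Bax, Ccng1, Trp53inp1 and Btg2, while Btg2 was the farthest from Mdm2 (1.28) and Cdkn1a (0.958). The 3 closest genes were Wdr82, Slc35f6 and Ttf2 for Trp53 (0.11 to 0.13) and Bscl2, 2900011O08Rik and Pole3 for Mdm2 (0.058 to 0.071). They were Rai1, Mef2d and Tnip1 for Bax (0.082 to 0.10), Psme2, Vamp8 and Ndufa4 for Ccng1 (0.13 to 0.15) and Casc3, Ankfy1 and Zdhhc16 for Trp53inp1 (0.097 to 0.10). For Btg2 they were the immediate early and cytokine response genes Egr1, Socs3 and Junb, though less close (0.27 to 0.30). These are descriptions over libraries that share depth, cell fraction and genotype.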

How the data were processed

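Libraries were grouped by their labels. Reads were trimmed by the authors (cutadapt 2.8) and mapped to GRCm38 (STAR 2.7.1a). The authors deposited TEtranscripts tables of whole-number counts per gene, in which gene reads were assigned by strand, and featureCounts (2.0.1) tables of expected counts per transcript, in which a read is divided among the transcripts it overlaps. These versions are those of the deposited processing notes, and the paper names other versions of STAR and featureCounts. The numbers in the CB column names (1, 2, 3 and 5 for CTRL, 2, 3 and 4 for cKO) are not the set of numbers in the labels, so CB libraries were numbered in column order. The columns of CTRL CB replicates 2 and 3 carry a prefix, MVH, that the other CB columns lack, and its part was not tested.

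Expected counts were rounded to whole numbers. Genes with 10 counts and transcripts with 20 counts in at least 3 libraries were tested over the whole table with edgeR 4.0.16 (TMM, quasi-likelihood test, limma 3.58.1, R 4.3.3), separately for each pair of groups, and over 4 groups for the difference between cell types. CPM used TMM over the 12 cell or the 7 CB libraries, whereas fold changes come from the fit of each comparison. Exon lengths and transcript classes were those of GENCODE. The procedure was tested on simulated counts, with changes placed only in genes of higher mean count. That test does not cover the low counts of most members in CBs. Alternatives were DESeq2 1.42.0, library sizes alone, relative log expression factors, scaling with transposable elements, other count filters, transcript counts summed per gene, a replicate block and each library left out.

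The members and all lists were chosen with earlier results of these data known. Beside the members, at most the 2 highest and 2 lowest genes of a list that passed, with a mean of at least 50 normalised counts and no overlap between groups, could be named. Ccng2 and Cdkn2d in RS fall outside this rule and were chosen after their values were seen. Lists of peritubular myoid and endothelial markers were also summed: in RS they came to 9.47 to 11.2 and 10.3 to 11.5 CPM in cKO and to 9.61 to 13.8 and 24.8 to 35.8 CPM in CTRL. Low counts limit the CB values. Small RNA tables were not used here. The genes closest in pattern to Cdkn1a and Bbc3 are not reported here.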

Additional observations from a re-analysis of the deposited data

Results flagged for a closer look

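For 7 of the 8 genes the effect of genotype differed between RS and Spc by the test of that difference over 12 libraries. The effect in RS minus that in Spc, on the log2 scale, was 1.28 for Trp53, 1.30 for Cdkn1a, 1.08 for Bax, 1.08 for Ccng1, 1.16 for Trp53inp1 and 1.99 for Btg2, and -0.57 for Mdm2. For Trp53 and Trp53inp1 the difference passed without any single library and under every scaling; for Mdm2 it passed without any single library but was 0.13 (adjusted p = 0.265) with library sizes alone. The calls of Btg2, Ccng1 and Cdkn1a each held in 3 of 12 fits with single libraries removed, and that of Bax in 7. In CTRL CBs, the one group with 4 libraries, the widest gap between an end library and its neighbour was 0.573 of the group's range (Ccng1), and no member passed Dixon's critical value for a group of this size.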

How the results depend on the processing

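The number of members that passed in RS, in Spc and between RS and Spc in CTRL stayed within 1.5 times its value under every alternative run. In CBs it was 2 with DESeq2, 1 with library sizes alone and 1 with no count filter, in place of 4, and 1 to 3 with single libraries left out; with 10 counts as the filter 3 member transcripts passed in CBs in place of 1. With single libraries left out, 2 to 4 members passed between RS and Spc in cKO, 3 to 7 for the difference between cell types, and 0 to 1 member transcripts in Spc and 13 to 23 in RS. The replicate numbers were not shown to pair the libraries: correlations of deviations between same-numbered CTRL and cKO libraries were 0.183, -0.271 and 0.399 in Spc and -0.138, -0.194 and 0.0805 in RS, and between Spc and RS -0.137, -0.0493 and -0.348 in CTRL and -0.07, 0.626 and 0.367 in cKO. With a replicate block 7 members passed in RS and 0 in Spc, 5 between RS and Spc in CTRL, where Bbc3 was at 1.54 (adjusted p = 0.0998), and 6 for the difference, where Cdkn1a was at 1.21 (adjusted p = 0.0729). No paired analysis was possible for CBs because the numbers in their column names are not the set of numbers in the labels, so no column could be tied to a labelled number.

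Directions turned mostly where values lay near 0. With library sizes alone they were 0.32 for Mdm2 in RS, -0.27 for Mdm2 from Spc to RS in CTRL, 0.13 for Mdm2 and 0.60 for Bbc3 in the difference between cell types, 0.013 for Trp53 in Spc, and 0.11 for Bax and 0.11 for Btg2 from Spc to RS in cKO; the scaling shifts all genes together. For Bax from Spc to RS in cKO the value was 0.026 scaled with elements, 0.019 with no filter and 0.028 from transcript counts. For Btg2 there it was 0.012 with DESeq2, 0.011 with relative log expression factors, 0.041 scaled with elements, 0.029 with no filter and 0.032 from transcript counts. From transcript counts Trp53 in Spc was 0.020 and Bbc3 in the difference 0.028, and scaled with elements the latter was 0.0033. With single libraries left out, values ran from -0.12 to 0.14 for Trp53 and -0.55 to 0.092 for Cdkn1a in Spc, from -0.56 to 0.29 for Bbc3 and -0.0063 to 0.65 for Trp53inp1 in CBs, from -0.15 to 0.10 for Bax, -0.35 to 0.033 for Ccng1 and -0.41 to 0.21 for Btg2 from Spc to RS in cKO, and from -0.51 to 0.19 for Bbc3 in the difference. Except where values are given here or in the report, the cause of such changes was not tested.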
